A study of Mus musculus with 6 samples.

Results

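Interferon regulatory factors (Irf) are transcription factors of the interferon and Toll-like receptor pathways. Results are given here for the 8 members Irf1, Irf2, Irf3, Irf4, Irf5, Irf7, Irf8 and Irf9, found by symbol among the 16266 genes of the deposited tables. All 8 passed the low-count filter and are among the 12219 tested genes. Total RNA came from mouse macrophages cultured from bone marrow, with 3 libraries from Capns1 knockout (KO) and 3 from wild-type (WT) cells. Capns1 encodes the small regulatory subunit of the calpain proteases. All 6 libraries, controls included, were made after 24 h of lipopolysaccharide (LPS), the bacterial ligand of the receptor TLR4. The series title describes the deletion as myeloid-specific. Neither labels nor title name the Cre line, the strain or the age of the mice. Nothing in the labels ties the replicates to separate animals or cultures, and p-values thus measure the spread between these libraries alone, which may be technical. Libraries without LPS were not analysed here.

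All factors of the family bind DNA through a shared amino-terminal domain that recognises GAAA repeats. Irf3 and Irf7 are switched on by phosphorylation and drive interferon genes, whereas Irf9 is the DNA-binding part of the complex Isgf3 that reads out type I interferon. Irf1 and Irf8 are themselves induced by interferon-gamma, Irf8 is required for the monocyte lineage, Irf5 and Irf4 both bind the adaptor MyD88, and Irf2 is known as a repressor at sites that Irf1 activates.

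Total counts ranged from 32631163 to 40913819 per library. The limit that a count of 0 allows is 3 counts, and these stood for 0.0733 to 0.0919 CPM, a limit that covers counting error only. CPM is the usual depth-scaled count, here relative to the column total of the library. Capns1 had 298 to 370 counts in the KO libraries and 17055 to 21331 in the WT libraries. The loss was thus present in all 3 KO libraries, although their genotype labels differ in the number after Capns. On the second principal component (15.9% of variance), WT replicate 3 (-23.2) lay apart from WT replicates 1 and 2 (8.21 and 12.4), and KO replicate 2 (25.5) lay apart from KO replicates 1 and 3 (-12.6 and -10.4). Results for the Irf members are given with and without both of them. The macrophage markers Adgre1, Csf1r, Lyz2 and Cd68 were abundant in all 6 libraries, at 26032 counts or more each.

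Promoter sequences are shown for the 3 members in which a binding motif was found, because Irf1 and Irf8 are the members that fell in KO and Irf2 is the counterpart of Irf1. RefSeq windows on GRCm38.p6, the assembly of mm10, were matched for all 8 members by gene identifier. The 250 bases before the first listed start were searched on both strands for GAAA, any 2 bases and GAAA again (the core of the interferon-stimulated response element), TTCNNNGAA (the gamma-activated site of interferon-gamma responses) and the kappaB motif. Sequences run 5′ to 3′ in the direction of the gene, and capitals mark the matches.
Irf1 (chr11:53769764-53770013, + strand): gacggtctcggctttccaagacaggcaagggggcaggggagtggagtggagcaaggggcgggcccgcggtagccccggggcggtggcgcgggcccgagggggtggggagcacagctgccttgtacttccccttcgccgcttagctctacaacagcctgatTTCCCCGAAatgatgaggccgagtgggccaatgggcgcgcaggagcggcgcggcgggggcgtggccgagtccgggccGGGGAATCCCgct
Irf8 (chr8:120736108-120736357, + strand): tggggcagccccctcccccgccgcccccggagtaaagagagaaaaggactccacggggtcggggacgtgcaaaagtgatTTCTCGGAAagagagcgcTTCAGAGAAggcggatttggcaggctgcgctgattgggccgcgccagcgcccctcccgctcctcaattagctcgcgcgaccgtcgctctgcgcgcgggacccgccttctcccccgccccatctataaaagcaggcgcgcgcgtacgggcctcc
Irf2 (chr8:46739495-46739744, + strand): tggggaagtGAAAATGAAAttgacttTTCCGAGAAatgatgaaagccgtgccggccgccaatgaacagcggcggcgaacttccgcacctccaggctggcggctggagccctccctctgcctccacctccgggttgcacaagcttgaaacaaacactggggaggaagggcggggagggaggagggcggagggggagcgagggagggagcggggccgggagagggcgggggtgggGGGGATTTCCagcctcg

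The Irf1 window held a gamma-activated site at 90 to 82 bases before the start and a kappaB match at 13 to 4 bases. In the Irf8 window there were 2 gamma-activated sites, at 171 to 163 and at 153 to 145 bases. For Irf2 there was a response element core at 241 to 232 bases, a gamma-activated site at 224 to 216 bases and a kappaB match at 17 to 8 bases. None of these matches overlapped another. Of 32851 RefSeq windows of the same length, 2.98% held the response element core, 7.02% the gamma-activated site and 7.25% the kappaB motif. In the windows of Irf3, Irf4, Irf5, Irf7 and Irf9, and in the second windows listed for Irf1, Irf8 and Irf9, these letters did not occur. The Irf5 window (chr6:29526375-29526624) lies inside the Irf5 gene, which starts at 29526130, so the bases before that position were not searched. Part of the Irf7 window (chr7:141266425-141266674) lies inside the Irf7 gene, which reaches to 141266499. A match is a description of sequence and not a measured binding site.

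Levels of different members were compared in FPKM, the authors' count scaled by gene length and library total. Irf7 stood far above the rest, at 1400.2 ± 70.3 FPKM in WT and 1237 ± 17.0 in KO (SD, n = 3 each), which placed it 34th of 16266 genes by WT mean. It made up 82.9 to 83.9% of the summed FPKM of the 8 members in WT libraries and 82.7 to 83.8% in KO libraries. Irf8 followed in WT at 91.8 ± 2.73, Irf5 at 63.5 ± 5.14, Irf9 at 43.5 ± 2.93, Irf1 at 41.2 ± 3.02, Irf3 at 32.6 ± 2.80, Irf2 at 7.71 ± 1.31 and Irf4 at 0.174 ± 0.0231 FPKM. Neighbours in this order did not overlap in WT except Irf9 and Irf1, whose ranges were 40.1 to 45.2 and 37.7 to 43.4. In KO the order changed at 1 place: Irf1, at 30.9 ± 1.60, stood below Irf3, at 34.9 ± 2.31, and their libraries did not overlap (29.1 to 32.1 against 33.0 to 37.5). Irf9 and Irf3 were the neighbours that overlapped in KO, with Irf9 at 35.6 to 43.9 FPKM. These values rest on a single length per gene in the authors' table, from 1606 bases for Irf3 to 11391 for Irf2, the latter longer than the 7396 exon bases of Irf2 in GENCODE M21. For Irf3, Irf7, Irf8 and Irf9 the lengths of 1606, 1859, 3435 and 2688 bases were shorter than the 3442, 3776, 7055 and 5386 exon bases there. In CPM, which uses no length, Irf1 stood above Irf3 in KO too (97.5 to 108 against 52.9 to 60.2). The order of members, and the place of Irf1 below Irf3 in KO, thus depend on the lengths used.

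**Figure D1:**
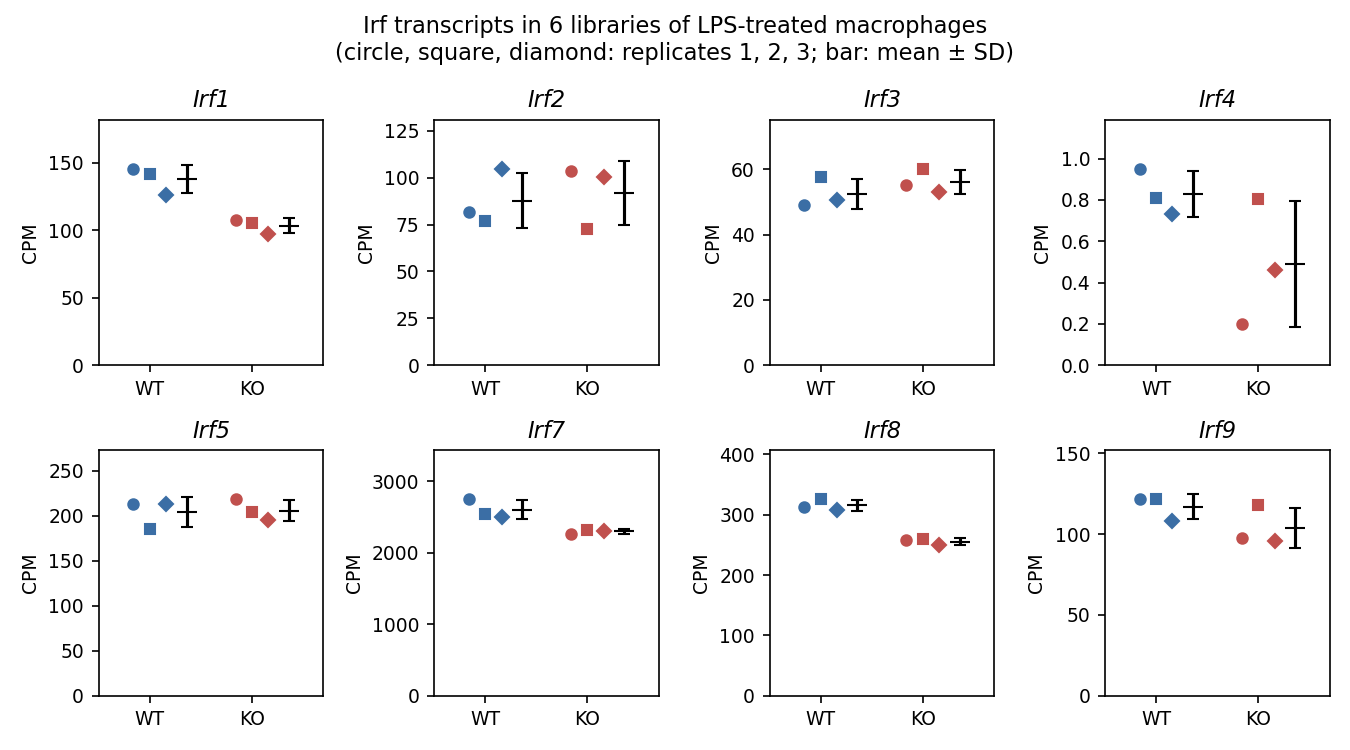
CPM (vertical axes, starting at 0) of the 8 Irf transcripts in 3 WT (blue) and 3 KO (red) libraries, with marker shape giving the replicate number and black bars the mean ± SD. All KO points of Irf1, Irf7 and Irf8 lie below all WT points, whereas Irf2, Irf3, Irf4, Irf5 and Irf9 overlap.

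Irf1 and Irf8 were lower in Capns1 KO macrophages, and no member was higher. Mean CPM in KO stood at 75.0% of the WT mean for Irf1 and at 81.0% for Irf8. In the edgeR quasi-likelihood test, 2 of 8 members were called lower (Benjamini-Hochberg adjusted p under 0.05 over all 12219 genes), where 6.21% of all tested genes were called lower, and 0 of 8 were called higher, where the share of all tested genes was 8.44%. At an unadjusted p under 0.05 in edgeR, 0 of 8 were higher and 3 of 8 lower, namely Irf1, Irf7 and Irf8. The share of all tested genes at that threshold is not given here, so these counts cannot be weighed against it. With limma-voom, which used the same count filter, 0 of 8 were called higher, where 1020 of 12219 genes were called higher. It called Irf1 and Irf8 lower, 2 of 8, where 754 of 12219 genes were called lower. DESeq2 called the same members, 2 of 8 lower and 0 of 8 higher, where 6.88% and 8.88% of its genes were called. The count of 2 rests on single libraries: it was 0 without WT replicate 1, WT replicate 2, KO replicate 1 or KO replicate 3. Fewer of all tested genes were called lower there too, at 3.47%, 3.48%, 2.88% and 3.23% in turn. Without WT replicate 3 the count was 1, where 5.37% of all tested genes were called lower and 8.37% higher. Without KO replicate 2 it was 2, where 5.99% were called lower and 8.07% higher. CPM values of Irf1, Irf7 and Irf8, 3 of 8 members, were lower in every KO library than in any WT library, which was so for 15.5% of all tested genes, and 0 of 8 were higher in every KO library, which was so for 18.2%. In these bulk libraries, fewer cells of a type and less RNA per cell cannot be told apart.

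Irf1, an activator of guanylate-binding protein and antigen presentation genes, lies on chromosome 11 at 53770014 to 53778374 (GRCm38, plus strand). Its WT libraries held 146, 142 and 127 CPM and its KO libraries 108, 106 and 97.5 CPM. The highest KO library lay below the lowest WT library, WT replicate 3. The log2 fold change, KO minus WT, was -0.44 ± 0.10 SE (edgeR adjusted p = 0.0142). Permuting the libraries exactly gave a two-sided p of 0.1, below which 6 libraries cannot go. The call was lost when WT replicate 1 (log2 fold change -0.40, adjusted p = 0.0757), WT replicate 2 (-0.41, 0.0535), KO replicate 1 (-0.44, 0.0560) or KO replicate 3 (-0.37, 0.0800) was left out. It was kept without WT replicate 3 (-0.48, adjusted p = 0.0101) and without KO replicate 2 (-0.47, adjusted p = 0.0142). Exons of Gm17334 on the opposite strand cover 3.40% of Irf1 exon bases, and 2.06% of its 32-base words occur in transcripts of other genes.

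Irf8, the factor that directs progenitors to monocytes and dendritic cells rather than granulocytes, lies on chromosome 8 at 120736358 to 120756694 (plus strand). Its WT libraries held 312, 326 and 308 CPM, and its KO libraries 257, 259.7 and 249.0 CPM. The 3 KO libraries were close together and all under the lowest WT library. The log2 fold change was -0.33 ± 0.09 SE (edgeR adjusted p = 0.0324), with an exact permutation p of 0.1. Leaving out WT replicate 1, WT replicate 2, WT replicate 3, KO replicate 1 or KO replicate 3 ended the call (adjusted p = 0.107, 0.0999, 0.0591, 0.131 and 0.136), with log2 fold changes between -0.33 and -0.29. Without KO replicate 2 it was -0.35 (adjusted p = 0.0330). No exon base of another gene overlaps Irf8 exons, and none of its 32-base words is shared.

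Irf7, the interferon-induced factor that amplifies type I interferon, lies on chromosome 7 at 141263183 to 141266499 (minus strand). Its WT libraries held 2752, 2549 and 2508 CPM and its KO libraries 2265, 2326 and 2308 CPM. KO libraries were tighter than WT libraries and all lay below them. The log2 fold change of -0.20 ± 0.09 SE had an adjusted p of 0.163 in edgeR (unadjusted p = 0.0432), so Irf7 was not called. The 95% interval of the log2 fold change ran from -0.39 to -0.0072. Under all 21 alternatives the value was negative, between -0.25 and -0.16, and never called.

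Irf3, the constitutive factor that acts first after TLR4 engages the adaptor Trif, lies on chromosome 7 at 44997648 to 45002848 (plus strand). It had 49.2, 57.5 and 50.4 CPM in WT and 55.1, 60.2 and 52.9 CPM in KO libraries. The groups overlapped, with a log2 fold change of 0.078 ± 0.11 SE (edgeR adjusted p = 0.702) and a 95% interval from -0.16 to 0.32. Irf9, the DNA-binding subunit of Isgf3, lies on chromosome 14 at 55603985 to 55610030 (plus strand). It had 122, 121 and 108 CPM in WT and 97.7, 118 and 95.6 CPM in KO. KO replicate 2 lay within the WT range and the other KO libraries below it, and the log2 fold change was -0.19 ± 0.12 SE (edgeR adjusted p = 0.322, 95% interval -0.45 to 0.065).

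Irf5, which carries the MyD88 signal to inflammatory cytokine genes, lies on chromosome 6 at 29526130 to 29541869 (plus strand). It stood at 214, 185 and 214 CPM in WT and 219, 204 and 195 CPM in KO. This was the member with the smallest difference, at a log2 fold change of -0.0089 ± 0.10 SE (edgeR adjusted p = 0.970) and a 95% interval from -0.23 to 0.22. Exons of Tnpo3 on the opposite strand cover 14.1% of Irf5 exon bases and 12.2% of its 32-base words are shared, and its count is uncertain to that extent, since it is not known whether counting used the strand. Irf4, a factor of alternatively activated macrophages and plasma cells, lies on chromosome 13 at 30749233 to 30766981 (plus strand). It had 33, 32 and 30 counts in WT libraries and 7, 30 and 15 in KO libraries. KO replicate 2 matched the WT libraries and the other KO libraries were lower. The log2 fold change was -0.77 ± 0.49 SE (edgeR adjusted p = 0.344), with the widest interval of the 8 members, from -1.84 to 0.30. It was -0.37 without KO replicate 1 and -1.37 without KO replicate 2 (adjusted p = 0.706 and 0.126), so Irf4 was not called in either case.

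**Figure D2:**
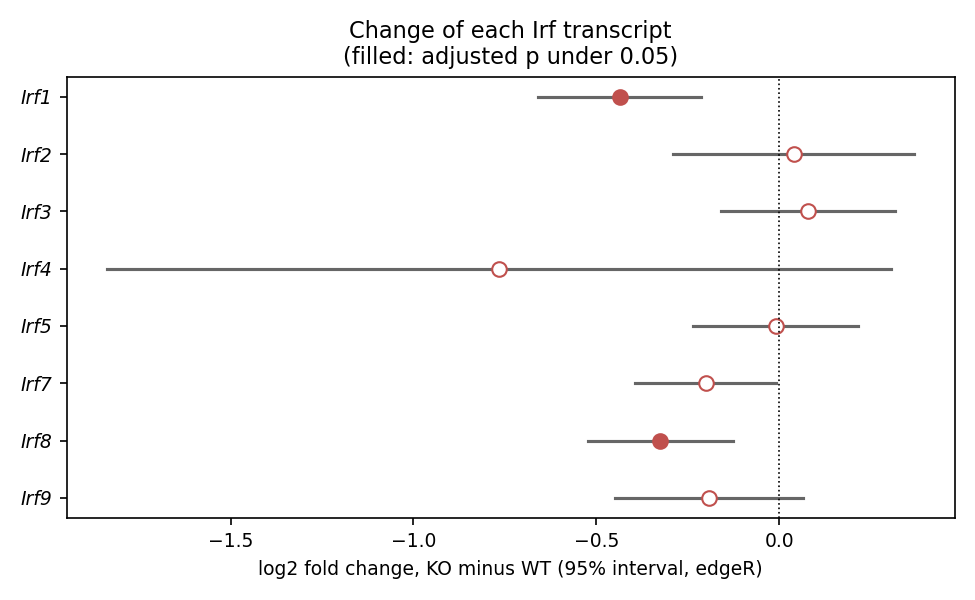
Log2 fold change, KO minus WT (horizontal axis), of each Irf member in edgeR, with points for estimates, lines for 95% intervals and filled points for an adjusted p under 0.05. Irf1 (-0.44) and Irf8 (-0.33) are filled, Irf7 (-0.20) lies left of 0 unfilled, and the line of Irf4 spans -1.84 to 0.30.

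Irf2, on chromosome 8 at 46739745 to 46847458 (plus strand), varied more among libraries of a group than between groups. It had 81.6, 77.1 and 105 CPM in WT and 103, 72.5 and 100.2 CPM in KO. WT replicate 3 and KO replicate 2 thus each sat at the level of the other genotype, as they did on the second principal component, and the log2 fold change over all 6 libraries was 0.040 ± 0.15 SE (edgeR adjusted p = 0.902). The corepressor gene Irf2bp2, whose product binds Irf2, also had its highest values in WT replicate 3, KO replicate 1 and KO replicate 3, at 149.8, 117 and 225 CPM in WT and 209, 118 and 192 CPM in KO. Its log2 fold change was 0.044 ± 0.23 SE (adjusted p = 0.932). This gene was picked with its values in view, and 20.3% of its 32-base words are shared. Ep300, Crebbp, Kdm6b and Irf2bp1, listed with it among partner and regulator proteins, had their highest values in the same libraries. The pattern is thus not particular to Irf2bp2.

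Without both WT replicate 3 and KO replicate 2, Irf2 was called higher in KO (log2 fold change 0.32, edgeR adjusted p = 0.0150) and Irf9 lower (-0.37, adjusted p = 0.00553). In this subset of 4 libraries, Irf1 (-0.53, adjusted p = 4.98e-04) and Irf8 (-0.37, adjusted p = 0.00547) remained called. Irf7 (-0.25, adjusted p = 0.0599) and Irf4 (-1.45, adjusted p = 0.0942) were not called there. That made 3 of 8 members lower and 1 of 8 higher, where 12.3% and 13.7% of all tested genes were called. The remaining WT and KO libraries also differ on the second principal component, and this difference and the genotype cannot be told apart there. The Irf1 to Irf2 ratio within a library, which needs no scaling between libraries, was 6.06, 6.26 and 4.10 in WT and 3.53, 4.95 and 3.30 in KO (FPKM over FPKM). The difference of mean log2 ratios of counts, KO minus WT, was -0.48 (two-sided exact permutation p = 0.2, where 0.1 is the smallest possible), and the groups overlapped. Without WT replicate 3 and KO replicate 2 the difference was -0.85 (exact permutation p = 0.333, below which 4 libraries cannot go). The libraries left out are those in which Irf2 sat at the level of the other genotype. Irf4 to Irf5 had a log2 ratio of -7.92 ± 0.21 in WT and -8.88 ± 1.04 in KO (SD, n = 3; exact permutation p = 0.2), which rests on the low Irf4 counts.

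**Figure D3:**
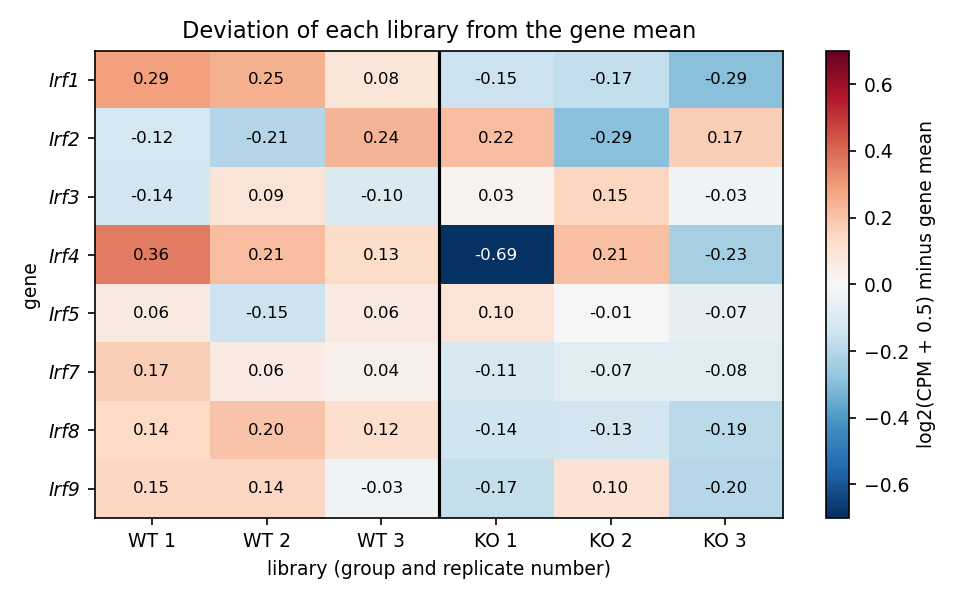
Log2(CPM + 0.5) minus the mean of the gene, by Irf member (rows) and library (columns), in red above and blue below the mean. Irf1, Irf7 and Irf8 are above their means in all WT libraries and below in all KO libraries, while Irf2 is above its mean in WT 3, KO 1 and KO 3.

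**Figure D4:**
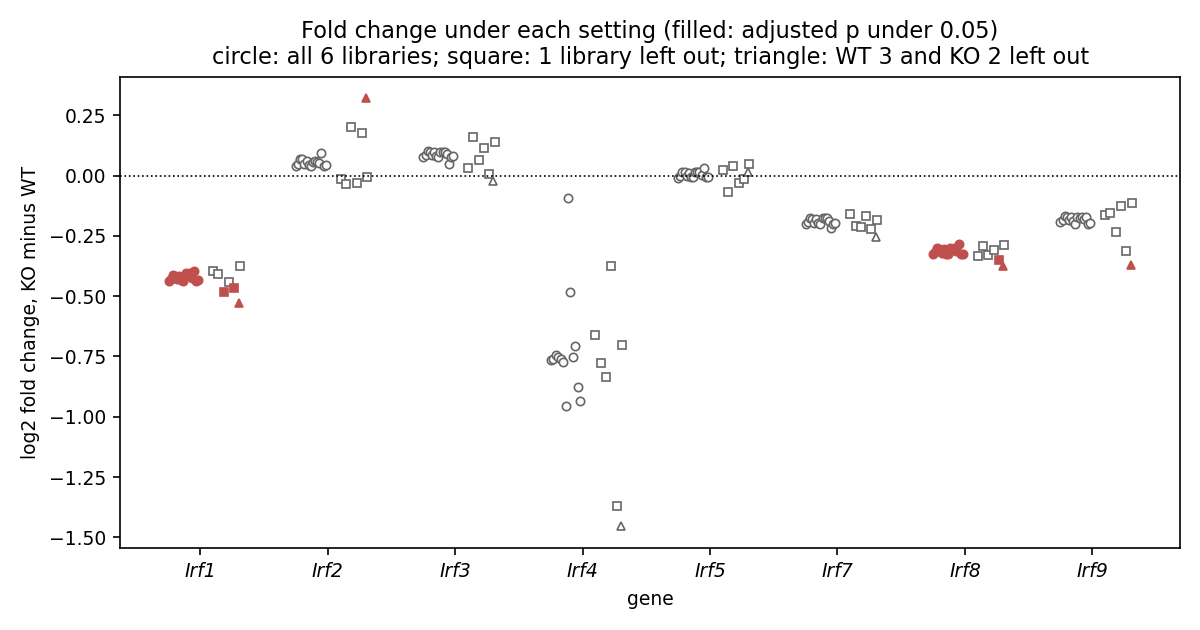
Log2 fold change, KO minus WT (vertical axis), of each Irf member under each setting, filled where the adjusted p was under 0.05. Irf1 lies between -0.53 and -0.37 and Irf8 between -0.37 and -0.28, and Irf2 and Irf9 are filled in the triangle alone, the setting without WT replicate 3 and KO replicate 2.

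The genes nearest to Irf1 and Irf8 in their pattern over the 6 libraries were found by the root mean square difference between profiles of log2(CPM + 0.5), each centred on its gene mean, among 12153 other protein-coding genes. For Irf1 these were Tbc1d14 (0.027 log2 units), the pyrin gene Mefv (0.031) and Dcaf8 (0.036). For Irf8 they were the lysosomal membrane protein gene Scarb2 (0.020), the sphingosine phosphate lyase gene Sgpl1 (0.021) and Tgoln1 (0.023). Within the family, Irf8 ranked 119th among the neighbours of Irf1 at a distance of 0.080, and Irf1 ranked 367th among those of Irf8. These distances are a description over 6 libraries, and all genes compared share these libraries and their depth.

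Genes around the factors were taken from lists of the pathway, and genes named there although not called were picked after their values were seen. Some genes stand in more than 1 list. Of all tested genes, 6.21% were called lower and 8.44% higher over the 6 libraries. Without both WT replicate 3 and KO replicate 2 the shares were 12.3% and 13.7%. Those with single libraries left out stand with the member counts above. Upstream of the factors, several genes that carry the signal to Irf3 and Irf7 fell. In the list of type I interferon induction, 4 of 15 tested genes fell and 0 rose in edgeR, with a median log2 fold change of -0.22 beside -0.011 over all tested genes. The kinase gene Ikbke, whose product phosphorylates Irf3 and Irf7, had 479.8, 451 and 431 CPM in WT and 334, 377 and 310 CPM in KO (log2 fold change -0.44 ± 0.11 SE, adjusted p = 0.0199). The DNA-sensing adaptor Sting1 (-0.39, adjusted p = 0.0290), the LPS co-receptor Cd14 (-0.34, adjusted p = 0.0304) and the bridging adaptor Ticam2 (-0.34, adjusted p = 0.0440) fell too, the last sharing 15.7% of its words with other genes. Tbk1, the kinase paired with Ikbke, stood at a log2 fold change of -0.20 (adjusted p = 0.197). Leaving out single libraries left 0 to 3 genes of the list called lower, with 2 when WT replicate 3 and 3 when KO replicate 2 was left out, and 0 for each of the other libraries. Without WT replicate 3 and KO replicate 2, 5 were called lower and 1 higher. The Ticam2 call was lost whichever library was left out (adjusted p of up to 0.168), and Ticam2 was called under 7 of the 21 alternatives.

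In the MyD88 branch that reaches Irf5, 2 of 15 tested genes fell and 1 rose, beside 6.21% and 8.44% of all tested genes, and the other 12 were not called (median log2 fold change -0.12). Without WT replicate 3 and KO replicate 2, 4 were called lower and 1 higher. The kinase Irak4 (-0.48 ± 0.10 SE, edgeR adjusted p = 0.00904) and the ubiquitin ligase Traf6 (-0.52, adjusted p = 0.0159) fell. Irak3, an inhibitory member of the kinase family, rose, with WT at 143 ± 20.7 CPM and KO at 198 ± 16.2 CPM (mean ± SD of 3 libraries) and a log2 fold change of 0.45 (edgeR adjusted p = 0.0314). The Traf6 call was lost without WT replicate 1 (adjusted p = 0.0763), KO replicate 1 (0.0928) or KO replicate 3 (0.0557), and that of Irak3 without WT replicate 1 (0.0732), WT replicate 2 (0.0815), KO replicate 1 (0.109) or KO replicate 3 (0.0620). Irak4 stayed called whichever library was left out (adjusted p of up to 0.0458).

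The measured interferon transcripts were few. Ifnb1 had 0, 10 and 4 counts in WT and 4, 1 and 1 in KO, below the count filter, and 10 of the 12 listed interferon genes were not analysed here. Among receptors, Jak kinases and Stat proteins, 1 of 10 tested genes fell and 0 rose, beside 6.21% and 8.44% of all tested genes. The median log2 fold change of the list was -0.18. The gene that fell was Ifnar2, a chain of the type I interferon receptor. Ifnar2 had 305, 313 and 314 CPM in WT and 232, 225 and 219 CPM in KO. Its KO libraries all lay below the WT libraries (log2 fold change -0.48 ± 0.09 SE, edgeR adjusted p = 0.00419), and the call was kept whichever library was left out. Stat2, a partner of Irf9 in Isgf3, was not called (-0.29, edgeR adjusted p = 0.107). The 15 tested partner and regulator proteins had a median log2 fold change of -0.011. Spi1, the lineage factor PU.1 that pairs with Irf4 and Irf8 on DNA, had a log2 fold change of -0.038 (adjusted p = 0.839).

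Downstream, the target lists of Irf1 and of Isgf3 and Irf7 held mostly falls among their called genes. Of the Irf1 targets, 7 of 24 tested genes fell and 1 rose, beside 6.21% and 8.44% of all tested genes. The median log2 fold change of the list was -0.26. The guanylate-binding protein Gbp5 had 23.9, 25.8 and 19.5 CPM in WT and 11.3, 13.1 and 14.5 CPM in KO (log2 fold change -0.85 ± 0.14 SE, edgeR adjusted p = 0.00210). The checkpoint ligand Cd274 (-0.46, adjusted p = 0.00872, with 14.4% of words shared) and the class I activator Nlrc5 (-0.49, adjusted p = 0.0105) fell as well, and their calls were lost without KO replicate 3 and WT replicate 1 respectively (adjusted p = 0.0518 and 0.0619). The cytokine Lif was the rise, with WT at 3.90 ± 0.889 CPM and KO at 10.5 ± 0.717 CPM (mean ± SD of 3 libraries) and a log2 fold change of 1.41 (edgeR adjusted p = 4.76e-04). Gbp2, Gbp3, Irgm1 and Il15 fell too. The peptide transporter Tap1 was not called (-0.043, adjusted p = 0.837). Leaving out single libraries gave 2 to 8 genes of the list called lower, with 4 when WT replicate 1 or WT replicate 2 was left out, 3 for KO replicate 1 and 2 for KO replicate 3, and without both WT replicate 3 and KO replicate 2 there were 10.

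For Isgf3 and Irf7 targets, 6 of 19 tested genes fell and 0 rose, beside 6.21% and 8.44% of all tested genes (median log2 fold change -0.24). The antiviral gene Rsad2 had 61.2, 57.2 and 53.3 CPM in WT and 26.7, 30.0 and 29.0 CPM in KO, and Ifit2 had 208, 161 and 149 CPM in WT and 73.2, 99.6 and 94.7 CPM in KO. Their log2 fold changes were -1.02 ± 0.11 SE (edgeR adjusted p = 9.72e-05) and -0.97 ± 0.15 SE (adjusted p = 0.00150). Cmpk2 (-0.66, adjusted p = 0.00312) and Ifi44 (-0.71, adjusted p = 0.00598) fell, as did Cxcl10 and Oas2. The ubiquitin-like protein gene Isg15 was not called (-0.033, adjusted p = 0.928). Its 3 KO libraries, at 198, 289.6 and 227 CPM, all lay within the WT range of 194 to 294 CPM. Without WT replicate 3 and KO replicate 2, 15 of the 19 were called lower, beside 12.3% of all tested genes. Without single libraries 4 to 8 of the list were called lower, the lowest without KO replicate 1 or KO replicate 3. There, 2.88% and 3.23% of all tested genes were called lower.

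Among Irf8 targets of macrophages, 2 of 16 tested genes fell and 0 rose, beside 6.21% and 8.44% of all tested genes (median log2 fold change -0.096). Those that fell were the receptor gene Csf3r (-0.50, edgeR adjusted p = 0.00471, with 22.3% of words shared) and the cathepsin gene Ctss (-0.38, adjusted p = 0.0417). The Ctss call was lost without WT replicate 1 (adjusted p = 0.0813), WT replicate 2 (0.155), KO replicate 1 (0.153) or KO replicate 3 (0.174), and Ctss was called under 12 of the 21 alternatives. Without KO replicate 2 alone, 5 of the list were called lower, and without both WT replicate 3 and KO replicate 2, 7. Irf5 targets held no called gene of 6 tested (median -0.15), and the smallest p values were those of Il12a (-1.11, adjusted p = 0.159) and Tnf (0.51, adjusted p = 0.185). Il12a alone had an unadjusted p under 0.05, and DESeq2 and limma-voom called 0 of the list. The chemokine Ccl4 was called lower without KO replicate 2, and Ccl4 and Ccl3 without both WT replicate 3 and KO replicate 2. Irf4 targets of alternative activation had 2 rises and 1 fall in 11 tested genes, beside 8.44% and 6.21% of all tested genes (median 0.16). The lectin Clec10a rose, with WT at 22.8 ± 2.07 CPM and KO at 133.6 ± 0.256 CPM (mean ± SD of 3 libraries) and a log2 fold change of 2.53 (edgeR adjusted p = 1.66e-07). The related lectin Mgl2 had 1, 6 and 11 counts in WT, near the counting limit, and 411, 440 and 356 in KO (edgeR adjusted p = 9.09e-07). The chemokine Ccl24 fell (-2.55, adjusted p = 0.00315). Without WT replicate 3 and KO replicate 2, 4 of 12 tested genes of this list were called higher and 1 lower. Mgl2 and Clec10a share 22.1% and 14.5% of their words with other genes.

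**Figure D5:**
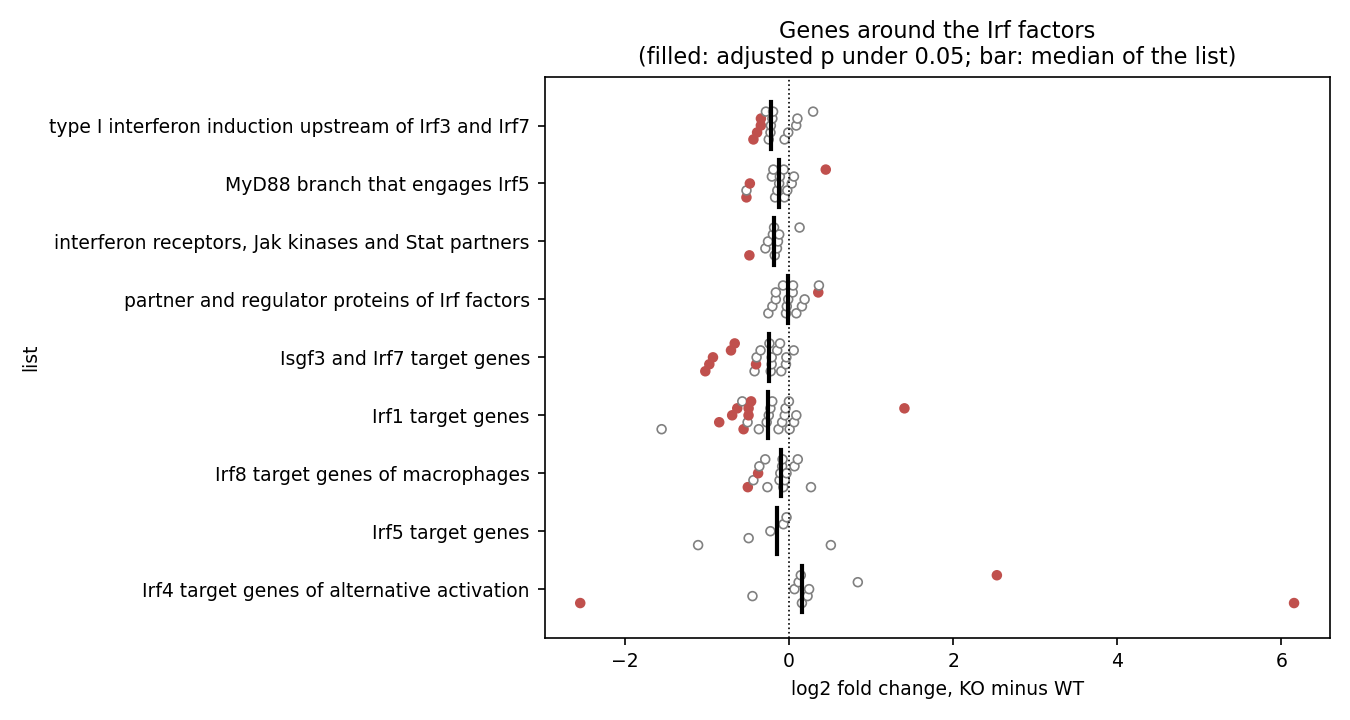
Log2 fold change, KO minus WT (horizontal axis), of each tested gene in 9 lists around the Irf factors, filled where the edgeR adjusted p was under 0.05, with a black bar at the median of each list. Called genes lie mostly left of 0 in the lists of type I interferon induction, Isgf3 and Irf7 targets and Irf1 targets, whose medians are -0.22, -0.24 and -0.26.

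Irf8 and Irf4 are also high in dendritic cells and B cells, so markers of these and other cells were measured in the same libraries. Some defining markers were nearly absent, while others on the same lists were present. Xcr1 had 0 to 1 count per library, Clec9a and Cd79a 1 to 4 and Siglech 0 to 10. The summed level of the 6 type 1 dendritic cell markers was 235 to 254 CPM in WT and 180 to 229 in KO, and that of the 8 B and plasma cell markers was 43.1 to 45.5 in WT and 25.5 to 29.2 in KO. The former sum came mainly from Wdfy4 and Cadm1 and the latter from Cd22, Cd79b and Jchain. Cadm1 (-0.72, edgeR adjusted p = 0.00450) and Cd22 (-0.80, adjusted p = 0.00149) fell, and both calls were kept whichever library was left out. Wdfy4, Batf3, Cd79b and Jchain were not called. In the 8 type 2 dendritic cell markers the sum was 26.0 to 33.5 CPM in WT and 148 to 150.4 in KO, with Clec10a and Mgl2, which are also on the list of Irf4 targets, making up most of it. Kmo of the same markers fell (-0.86, edgeR adjusted p = 0.0256, kept in 2 of 6 fits with a single library left out), and Dpp4 was not called. Sums of the 7 plasmacytoid markers overlapped (973 to 1248 CPM in WT and 994 to 1233 in KO) and came mainly from Bst2. Of 10 neutrophil and granule precursor markers, Prtn3, Ctsg, Mpo and Elane fell and S100a8 and S100a9 rose, with summed levels of 842 to 1108 CPM in WT and 840.3 to 1086 in KO. The S100a9 groups overlapped, and its call (edgeR adjusted p = 0.0455) was kept in 2 of 6 fits with a single library left out. The 10 fibroblast and stroma markers summed to 162 to 197 CPM in WT and 346 to 419 in KO. Of these 10, 5 were called higher and 0 lower, beside 8.44% and 6.21% of all tested genes. The 9 macrophage markers summed to 35421 to 42761 CPM in WT and 33752 to 38854 in KO. For the 5 T and NK cell markers in the table the sums were 8.73 to 13.7 and 7.15 to 9.07 CPM. Of the T and NK cell markers, Nkg7 fell (-2.11, edgeR adjusted p = 0.00543, kept whichever library was left out) and Cd4 was not called. The part of these cells in the Irf values was not tested.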

How the data were processed

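The authors deposited read counts per gene and FPKM values for the 6 libraries. Per the submitters' processing notes, the tools were HISAT2, HTSeq and fastp and the build was mm10, while their versions, roles and strand setting were not given. Deposited FPKM matched count over length over column total within 1% in 99.99% of entries with 10 or more counts.

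The test was the quasi-likelihood F test of edgeR 4.0.16 (R 4.3.3) after filterByExpr and TMM, with Benjamini-Hochberg adjustment over 12219 genes and calls at an adjusted p under 0.05. The SE of a log2 fold change is its size over the square root of F. The 21 alternatives comprised other scalings and filters, DESeq2 1.42.0, limma 3.58.1 on counts and on log2(FPKM + 1) or log2(FPKM + 0.1), protein-coding genes, a length trend, a replicate block and libraries left out.

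The members, the lists and the alternatives were chosen with earlier results of these data known. Of 155 pathway and 66 marker entries, 16 were not analysed here. Values of a few list genes are not reported. Named genes are all members, in each list the called genes of smallest adjusted p, at most 4, or the 2 leading genes by p in a list without calls, and the 3 nearest profiles of each called member. On simulated counts for 12219 genes with 200 changed, edgeR recovered 0% of changes at 1.2-fold and 50% at 1.5-fold in this comparison, with 82% at 2-fold and 94% at 4-fold, and 5.04% of its calls were false. Shared sequence is the percentage of 32-base words of a gene found in transcripts of other genes.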

Additional observations from a re-analysis of the deposited data

How the results depend on the processing

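With all 6 libraries, Irf1 and Irf8 were called under every scaling, filter and tool run, and no member changed direction with a call. Leaving out single libraries gave 1119 to 1741 called genes against 1790 with all, 359 to 742 called lower against 759, 704 to 1039 called higher against 1031, and 0 to 2 called Irf members, all lower (2 over all libraries). Without both WT replicate 3 and KO replicate 2 there were 3186 called genes, 1681 higher and 1505 lower, and 4 called members, 1 of them higher. The Irf1 to Irf2 log2 difference was then -0.85, and -0.67 to -0.36 without single libraries. The cause was not tested. Irf4 rests on 7 to 33 counts per library, and the measured interferon genes did not pass the count filter.

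The labels do not say whether the replicate numbers pair the samples. Deviations of same-numbered libraries correlated at -0.098, 0.23 and 0.18, and replicate 2 of WT alone correlated best with its own number. With 3 libraries per group, these values cannot decide whether the samples are paired. With the replicate block in edgeR, 2526 genes were called, 1164 of them lower, and Irf1 and Irf8 had adjusted p = 0.00298 and 0.0193. In DESeq2 with the block, 2281 genes were called.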
